A study of Homo sapiens with 32 samples.

Results

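The genes described are 45 solute carriers that gut and liver use to move sugars, amino acids, ions, metals, vitamins, bile acids and fatty acids across membranes. They were chosen by name with earlier results of these data known, so their shares beside all genes are descriptive and have no p-value. Each was searched for binding of the transcription factor HNF4α within 50 kb of its span on GRCh38. They are 45 of 20033 protein-coding genes with a span, beside 353 other carrier genes of the same naming families. Binding was read from 18 lists of chromatin immunoprecipitation sequencing (ChIP-seq) peaks, 1 list per library, in 3 human cell lines of pancreatic ductal adenocarcinoma. The lines Panc10.05 and BxPC3 were given doxycycline to induce either P1-α2, an isoform from the P1 promoter of HNF4A, or P2-α8, an isoform from its P2 promoter. The dose was 500 ng/mL for both isoforms in BxPC3. In Panc10.05, P1-α2 was induced at 25 ng/mL and P2-α8 at 12.5 ng/mL, so isoform and dose differ together there, and no list of cells without doxycycline was used here. AsPC1 (labelled ASPC1) carried no doxycycline label and was studied by CRISPR interference, which represses a promoter with a guide RNA. The genotypes were a control guide (sgNC), a guide against P1 (sgP1) and a guide against P2 (sgP2), with 1 guide per promoter named in the sample titles. An antibody against every HNF4α isoform (pan-HNF4α) was used in all these genotypes, and a P1-specific antibody in sgNC and sgP2 cells. There were 9 groups with 2 libraries each, and the labels do not say whether these were separate cultures, so every p-value measures only the spread between these libraries.

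HNF4α is a nuclear receptor that binds DNA as a homodimer and is known as a regulator of hepatocyte and intestinal epithelial genes. Solute carriers are membrane proteins that move their substrates down a gradient or against one by coupling to sodium, protons or a counter-substrate. In enterocytes and hepatocytes, different members sit on the apical and the basolateral side, so that nutrients pass through the cell. A peak near a carrier gene shows HNF4α on the chromatin of that locus and says nothing of the level of its RNA. The peak lists hold no expression, so the labelled cell lines could not be checked against marker genes.

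The promoters that held a summit in the most lists are shown first, because they place the binding on the carrier gene itself. RefSeq promoter sequences (GRCh38.p14) were matched for 38 of the 45 genes, in 52 windows from 250 bases before to 50 bases after a transcript start. SLC2A3, SLC5A9, SLC16A1, SLC16A5, SLC39A4, SLC28A2 and SLC22A3 had no match. Each line gives the 250 bases before the start, written 5′ to 3′ on the gene's strand. SLCO2B1 encodes an uptake carrier of organic anions. The capitals in its promoter mark TGGACTTTG, which reads CAAAGTCCA, a core sequence of the HNF4 motif, on the opposite strand. It lies 69 bases before the start, in chr11:75159582-75159831, plus strand.
SLCO2B1: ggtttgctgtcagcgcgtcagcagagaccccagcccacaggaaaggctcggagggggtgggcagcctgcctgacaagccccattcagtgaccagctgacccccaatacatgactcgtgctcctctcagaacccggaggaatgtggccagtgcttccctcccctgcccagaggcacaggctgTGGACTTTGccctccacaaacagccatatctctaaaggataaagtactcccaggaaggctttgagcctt
In the next lines the capitals mark the stretch over which the summits of the different lists fell. SLC7A7 encodes the light chain of a basolateral exporter of cationic amino acids (chr14:22815436-22815685, minus strand).
SLC7A7: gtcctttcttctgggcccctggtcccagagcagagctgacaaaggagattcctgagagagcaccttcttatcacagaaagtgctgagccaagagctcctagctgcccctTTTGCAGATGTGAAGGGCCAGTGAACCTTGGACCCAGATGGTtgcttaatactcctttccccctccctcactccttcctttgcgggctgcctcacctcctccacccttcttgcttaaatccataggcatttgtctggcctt
SLC35D1 encodes a carrier of nucleotide sugars in the endoplasmic reticulum (chr1:67054149-67054398, minus strand).
SLC35D1: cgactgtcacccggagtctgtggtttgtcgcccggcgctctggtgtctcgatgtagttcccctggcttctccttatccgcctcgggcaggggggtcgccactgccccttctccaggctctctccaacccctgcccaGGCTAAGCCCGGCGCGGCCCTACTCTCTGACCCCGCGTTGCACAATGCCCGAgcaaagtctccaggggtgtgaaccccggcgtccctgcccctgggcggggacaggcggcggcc
SLC25A13 encodes the mitochondrial aspartate-glutamate carrier citrin (chr7:96322099-96322348, minus strand).
SLC25A13: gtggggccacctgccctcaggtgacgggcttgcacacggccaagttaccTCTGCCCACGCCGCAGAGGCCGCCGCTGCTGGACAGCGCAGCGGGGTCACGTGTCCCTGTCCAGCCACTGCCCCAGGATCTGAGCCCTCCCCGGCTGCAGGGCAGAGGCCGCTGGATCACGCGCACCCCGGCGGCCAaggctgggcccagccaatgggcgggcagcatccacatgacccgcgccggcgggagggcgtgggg
SLC7A9 encodes the light chain of the apical cystine and cationic amino acid exchanger, and its summits ran on to 29 bases past the start (chr19:32869768-32870017, minus strand).
SLC7A9: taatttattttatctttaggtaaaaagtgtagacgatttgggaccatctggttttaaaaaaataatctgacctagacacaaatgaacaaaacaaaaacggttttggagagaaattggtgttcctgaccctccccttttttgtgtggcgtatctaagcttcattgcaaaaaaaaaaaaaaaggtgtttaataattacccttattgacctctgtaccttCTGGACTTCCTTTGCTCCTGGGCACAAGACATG
SLC26A6, an apical anion exchanger, had its summits between 10 bases before and 43 bases after the start, and 30 bases are shown with CAAAGTTCA in capitals, 20 bases after the start (chr3:48633807-48633836, minus strand).
SLC26A6: tctcaccagcCAAAGTTCAggtactgcccc

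Peak strength is given as a percentile by fold enrichment within a list, from 0 to 100 with 100 the strongest peak, because list lengths differed. The AsPC1 lists reach down to a −log10 q of 2 and the others to 8, so a percentile describes a peak within its own list and shows no change between lists. In the SLCO2B1 window a summit lay in 17 of the 18 lists, at a median of 79 bases before the start and between 176 and 46 bases before it. That start is at base 75159832, and 0 lists had a summit at the other annotated start, at base 75151107. Percentiles in the bound window were 98.8 and 97.8 in Panc10.05 P1-α2, 98.3 and 95.5 in Panc10.05 P2-α8, 98.2 and 92.1 in BxPC3 P1-α2, and 89.9 in both BxPC3 P2-α8 lists. With the pan antibody in AsPC1 they were 99.2 and 94.2 with sgNC, 99.2 and 95.2 with sgP1, and 98.8 and 96.2 with sgP2. No pan list stood apart, and the lowest pan values were those of BxPC3 P2-α8. With the P1 antibody the window held a peak at 72.3 in 1 sgNC list and at 90.5 and 86.9 with sgP2.

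The SLC7A7 window also held a summit in 17 lists, at a median of 125 bases before the start at base 22815435. At its annotated starts at bases 22815871 and 22819791, 0 lists had a summit. In AsPC1 the bound window was at 99.9 and 99.7 with sgNC, 100.0 and 99.8 with sgP1, and 99.9 in both sgP2 lists. In the induced lines it was at 94.8 and 88.2 in Panc10.05 P1-α2, 70.1 and 45.8 in Panc10.05 P2-α8, 98.8 and 91.0 in BxPC3 P1-α2, and 96.8 and 47.9 in BxPC3 P2-α8. The window was bound in all 3 lines. In the SLC35D1 window, with its summit at a median of 82 bases before the start, percentiles ran from 67.5 to 98.2 over 16 lists, and both sgNC lists of the P1 antibody held none. These 3 genes were the only members with a promoter summit in every one of the 14 pan lists, where 0.316% of 15842 genes with a promoter entry had one. Over at least 7 pan lists the count was 5 members (13.2%) against 3.08% of all such genes, and over at least 1 list it was 15 members (39.5%) against 18.2%.

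Other promoter windows differed between AsPC1 and the induced lists or between Panc10.05 and BxPC3. AsPC1 carried guides and no doxycycline label, so line, induction and guide cannot be told apart in its comparison with the induced lists. SLC7A9 had a summit in all 6 AsPC1 pan lists, at percentiles of 80.0 and 69.7 with sgNC, 75.6 and 59.8 with sgP1, and 47.2 and 70.5 with sgP2. None of the 8 induced lists had one. The groups were compared at a −log10 q of at least 8 in every list. The two-sided exact permutation test over 6 against 8 libraries gave p = 0.000333, the smallest p this design allows, and a Benjamini-Hochberg adjusted p of 0.0337 over the 2734 windows with a summit. This was 1 of the 16 windows (0.585%) that passed in favour of AsPC1, and no member was among the 0.402% that passed in favour of the induced lines. Leaving out any of 12 of the 14 libraries lifted the adjusted p above 0.05, to at most 0.0783 by exact permutation, and the exceptions were replicate 1 of Panc10.05 P2-α8 and replicate 1 of BxPC3 P2-α8. At a −log10 q of at least 20 the adjusted exact permutation p was 0.595, and over all alternatives it ran from 0.00615 to 0.595. SLC26A6 had the opposite pattern, with summits in 7 of 8 induced lists (percentiles 75.3 to 91.9) and in 0 of 6 AsPC1 lists (exact permutation p = 0.00466, adjusted p = 0.250). These summits were at its start at base 48633846, and its other annotated start, at base 48635461, had a summit in 0 lists.

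SLC25A13 was bound at its promoter in Panc10.05 and AsPC1 and not in BxPC3. The peaks were at 15.9 and 28.4 in Panc10.05 P1-α2, 17.3 and 5.60 in Panc10.05 P2-α8, and between 26.0 and 74.2 in the AsPC1 pan lists, and 1 P1-antibody list with sgP2 had one at 8.92. The exact permutation test of 4 Panc10.05 lists against 4 BxPC3 lists gave p = 0.0286, the smallest possible, and an adjusted p of 0.633. SLC11A2, the iron importer of the duodenum, had summits at its start at base 51009215 of chromosome 12 in 5 of 6 AsPC1 pan lists and 0 of 8 induced lists (exact permutation p = 0.003, adjusted p = 0.250). Another of its starts, at base 51028886, went the other way. Summits lay there in 1 of 6 AsPC1 pan lists and 4 of 8 induced lists (exact permutation p = 0.301). The second annotated start of SLC2A9 had summits in all 4 BxPC3 lists, at 93.8 and 96.5 with P1-α2 and 82.4 and 55.4 with P2-α8, and at 8.7 in 1 Panc10.05 P2-α8 list. Neither SLC25A13 nor SLC11A2 passed the adjusted threshold, and between Panc10.05 and BxPC3 no window of the genome did in this exact permutation test (0%, with 111 windows at an unadjusted p under 0.05).

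**Figure D1:**
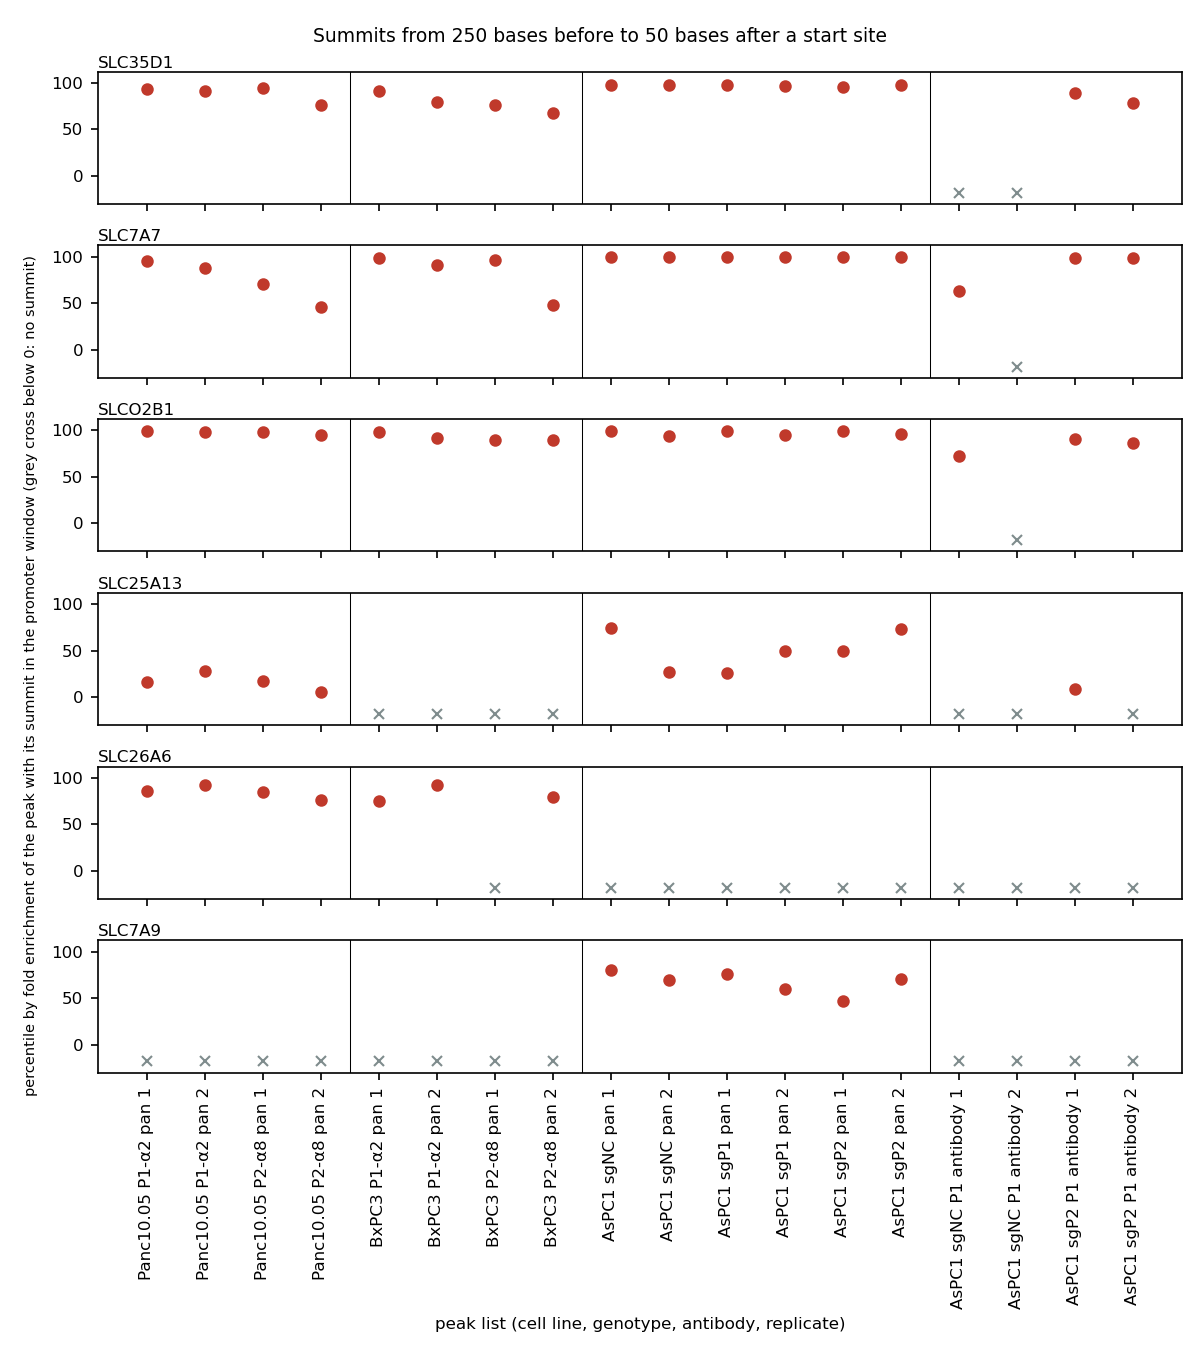
Percentile by fold enrichment (vertical axis, 0 to 100) of the peak with its summit in a promoter window of 6 carrier genes, in each of the 18 lists (horizontal axis). Red points are peaks and grey crosses below 0 are lists with none; SLC35D1, SLC7A7 and SLCO2B1 have a point in all 14 pan lists, SLC7A9 in AsPC1 pan lists only, and SLC26A6 in induced lists only.

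The motif sequences were read on both strands in the 300-base windows. CAAAGTCCA was present in 0.356% of 22198 windows, CAAAGTTCA in 0.243% and CAAAGGTCA in 0.347%. Among the 517 windows with a summit in at least 7 pan lists the shares were 5.61%, 2.90% and 1.74%. Each of the 3 sequences was found in 1 of the 52 member windows: in SLCO2B1, in SLC26A6, and in SLC26A3, a colonic chloride-bicarbonate exchanger, where it lay 135 bases before the start and no list had a summit. The looser CAAAGNNCA, searched after the data were seen and containing the other 3, was in 5 member windows, in 4.63% of all windows and in 22.1% of the 517.

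Within 50 kb, every member had a peak in at least 1 list. Both libraries of a group held a peak at 41 of the 45 members in Panc10.05 P1-α2 (91.1%, against 74.5% of all protein-coding genes), 43 in Panc10.05 P2-α8 (95.6% against 79.5%) and 42 in BxPC3 P1-α2 (93.3% against 76.6%). BxPC3 P2-α8 had 34 (75.6% against 45.4%). The AsPC1 pan counts were 36 with sgNC (80% against 58.5%), 33 with sgP1 (73.3% against 50.6%) and 36 with sgP2 (80% against 52.0%). In each pan group the share of members was above that of the other 353 carriers, which ran from 49.0% in BxPC3 P2-α8 to 83.3% in Panc10.05 P2-α8. The P1 antibody gave 1 member with sgNC (2.22% against 2.31% of all genes) and 18 with sgP2 (40% against 23.7%). Without replicate 2 of the sgNC P1-antibody lists, which held 260 peaks against 697 in replicate 1, the count of 1 became 7.

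All 14 pan lists held a peak at 28 members (62.2%), at 103 of the other carriers (29.2%) and at 29.6% of all protein-coding genes. The members' spans had a median of 37.8 kb, close to the 37.1 kb of the other carriers and longer than the 24.1 kb of all genes. A member's window held a median of 2 other protein-coding genes, so a peak in it is not assigned to the carrier. The percentiles by gene below are those of the best peak in the window. Over all genes with a peak, the median best percentile was already 66.3 to 81.1 in the pan lists. For members it was 62.7 to 91.5. It was below that of all genes in both sgP1 lists and in replicate 1 of sgP2, and above it in the other pan lists. SLC9A2 was the only member with a peak in all 18 lists. SLC5A9, SLC13A2, SLC28A2, SLCO1B1, SLCO1B3, SLCO4C1 and SLC27A2 had none in any AsPC1 pan list. Absence was common over all genes, since single AsPC1 pan lists held a peak at only 54.3% to 71.9% of them. The share of all genes with none in every AsPC1 pan list is not given, so these absences are not read as a trait of the carriers.

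**Figure D2:**
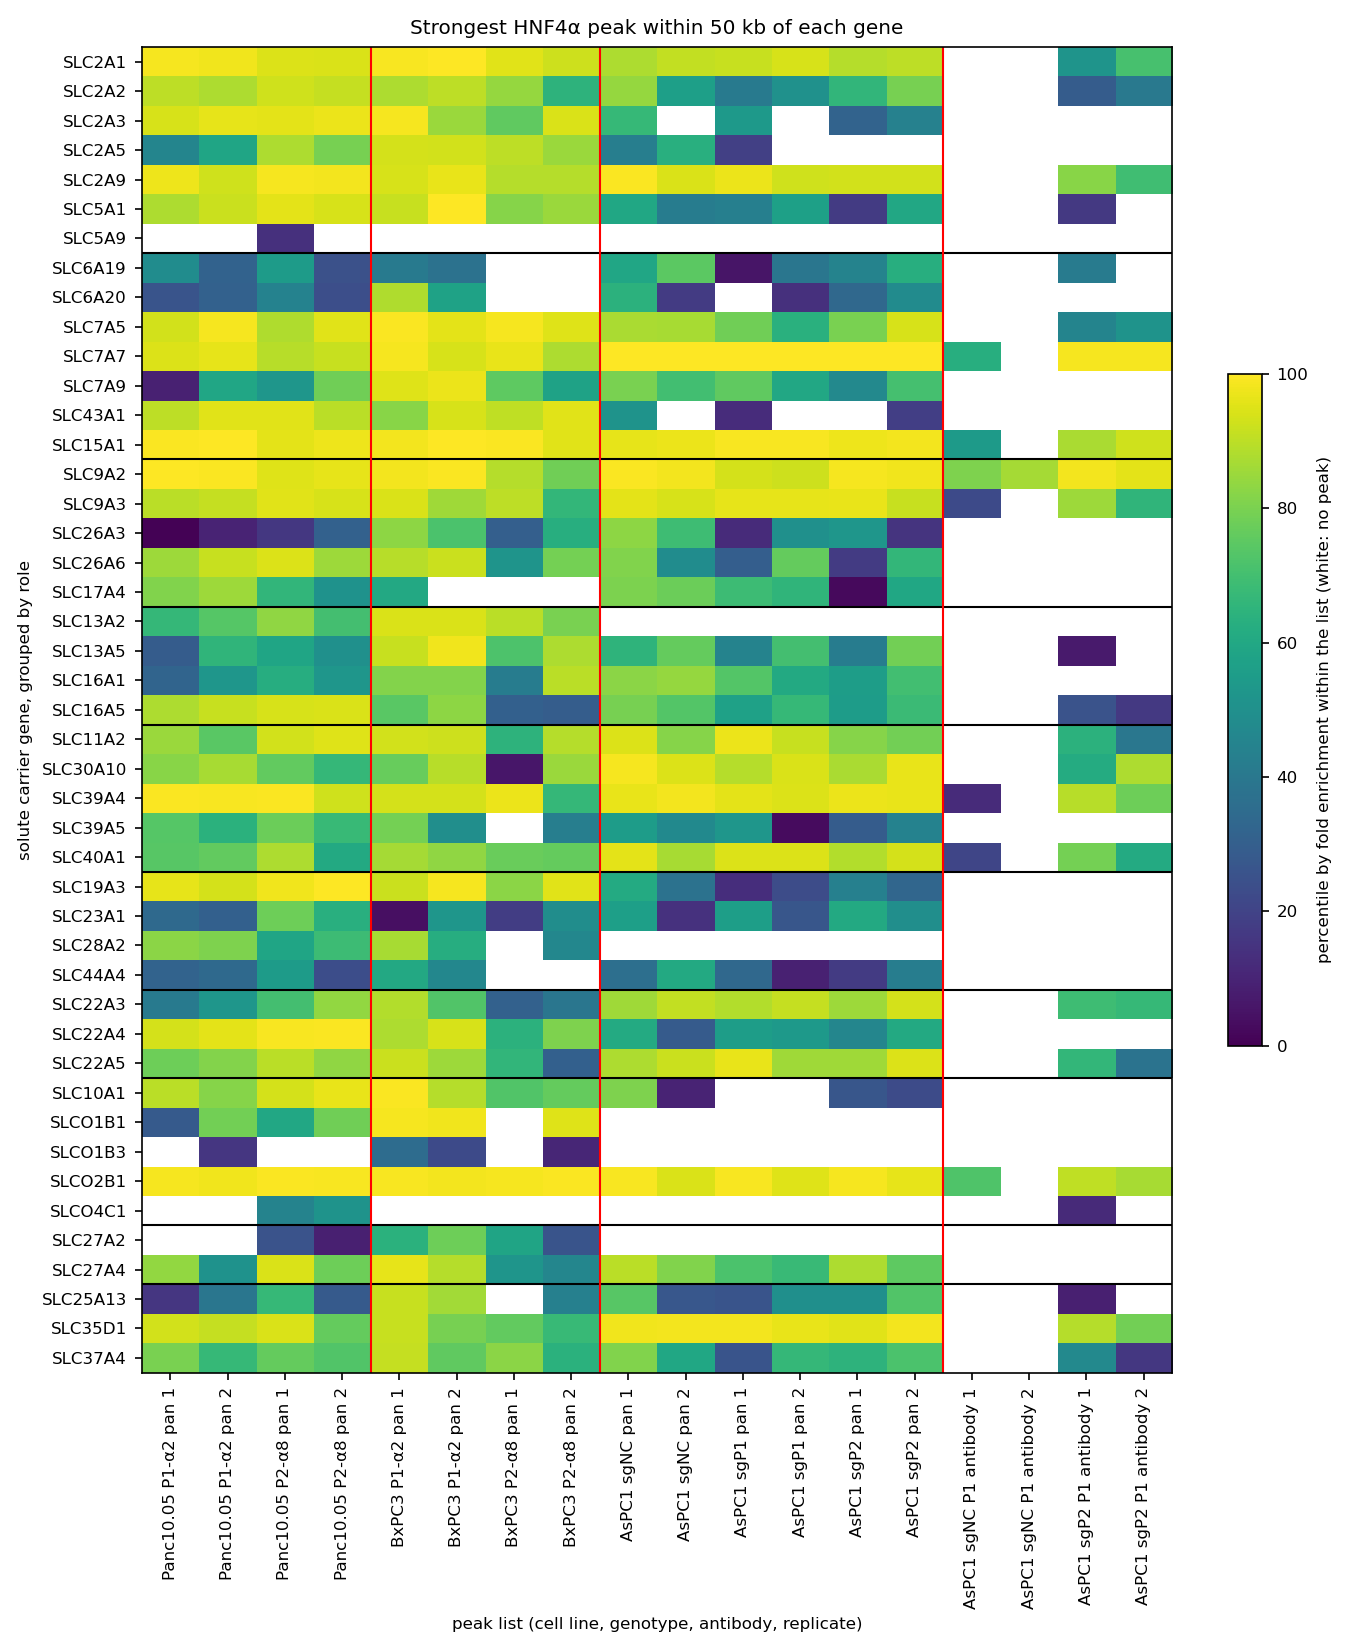
Best percentile by fold enrichment (colour, 0 to 100) within 50 kb of each of the 45 carrier genes (rows, grouped by role) in each of the 18 peak lists (columns); blank cells are lists without a peak. SLCO2B1, SLC15A1 and SLC9A2 have the highest medians over the pan lists (98.8, 98.2 and 98.1), and 7 rows are blank across the AsPC1 pan columns.

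Among the 7 carriers of hexoses and urate, SLC2A1, SLC2A2, SLC2A9 and SLC5A1 had a peak in every pan list. SLC2A1, the glucose carrier of most proliferating cells, had pan percentiles from 87.6 to 99.9 with a median of 94.1. SLC2A9, a urate and hexose carrier, ran from 88.7 to 99.2 with a median of 94.1. These loci were strong in all 3 lines. SLC2A2, the low-affinity glucose carrier of hepatocytes and enterocytes, was at 90.2 and 87.6 in Panc10.05 P1-α2, 92.6 and 91.1 in Panc10.05 P2-α8, 87.7 and 90.2 in BxPC3 P1-α2, and 84.0 and 64.6 in BxPC3 P2-α8. With sgNC it was at 84.0 and 56.4, with sgP1 at 40.7 and 50.6, and with sgP2 at 65.8 and 79.4. SLC5A1, the apical sodium-glucose carrier, had a median of 83.4, and SLC2A3, another glucose carrier, was found in 12 lists with a median of 89.4. SLC5A9, a sodium-coupled hexose carrier, had a single peak at 13.7 in replicate 1 of Panc10.05 P2-α8.

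SLC2A5, the fructose carrier of the brush border, was found in 11 lists. Its percentiles were 45.7 and 58.9 in Panc10.05 P1-α2, 87.6 and 79.5 in Panc10.05 P2-α8, 93.6 and 93.3 in BxPC3 P1-α2, and 89.9 and 84.9 in BxPC3 P2-α8. AsPC1 had 42.8 and 63.3 with sgNC, 18.9 in 1 of the sgP1 lists and no peak with sgP2. All 8 induced lists and 3 of the 6 AsPC1 pan lists thus held a peak.

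Of the 7 carriers of amino acids and peptides, SLC7A5, SLC7A7, SLC7A9 and SLC15A1 had a peak in every pan list. SLC15A1, the apical carrier of di- and tripeptides, ran from 95.5 to 99.7 over the 14 pan lists with a median of 98.2. With the P1 antibody it was at 54.5 in 1 sgNC list and at 87.2 and 92.7 with sgP2. These best peaks did not come from a single region. With sgP2 and the P1 antibody, chr13:98775571-98776755 gave the 87.2 and chr13:98746678-98747660 the 92.7. SLC7A5, which takes up large neutral amino acids, had a median of 93.5. Weaker and less frequent peaks lay at SLC6A19 (12 pan lists, median 42.8) and SLC6A20 (11 pan lists, median 34.0), apical carriers of neutral amino acids and of proline. SLC43A1, a facilitated carrier of large neutral amino acids, was at 82.1 to 95.5 in the 8 induced lists, at 51.2 in 1 sgNC list, 12.8 in 1 sgP1 list and 18.6 in 1 sgP2 list.

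All 5 carriers of protons, chloride, bicarbonate and phosphate had peaks in at least 11 lists. SLC9A2, a sodium-proton exchanger of the gut epithelium, was at 99.7 and 99.4 in Panc10.05 P1-α2, 95.1 and 96.4 in Panc10.05 P2-α8, 98.3 and 99.4 in BxPC3 P1-α2, and 89.0 and 78.4 in BxPC3 P2-α8. The AsPC1 pan values were 99.4 and 98.4 with sgNC, 93.4 and 92.3 with sgP1, and 98.6 and 97.8 with sgP2, and the P1 antibody gave 80.5 and 86.5 with sgNC and 98.2 and 95.9 with sgP2. The peak was the same region inside the gene throughout, chr2:102659927-102661173, its summit 41179 bases past the start, and it was the only region near a member found in all 18 lists. SLC9A3, the main sodium-proton exchanger of the brush border, had a median of 94.0, SLC26A6 of 80.1, SLC17A4, an intestinal anion carrier of the phosphate carrier family, of 65.8, and SLC26A3 of 40.7.

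The 4 carriers of carboxylates differed among themselves. SLC13A2, a sodium-coupled carrier of dicarboxylates, was at 66.5 and 73.5 in Panc10.05 P1-α2, 83.3 and 70.1 in Panc10.05 P2-α8, 94.4 in both BxPC3 P1-α2 lists, and 89.5 and 79.8 in BxPC3 P2-α8, and it had no peak in any AsPC1 list. SLC13A5, the citrate carrier of hepatocytes, had a median of 67.8, SLC16A1, a carrier of lactate and other monocarboxylates, of 66.1, and SLC16A5, of the same family, of 73.7, each in all 14 pan lists.

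Among the 5 metal carriers, SLC39A4, the zinc importer of enterocytes, had a median of 96.5, SLC11A2 of 90.2, SLC30A10, a manganese exporter, of 87.1, and SLC40A1, the iron exporter ferroportin, of 86.7, each in all pan lists. SLC39A5, a basolateral zinc carrier, was found in 13 pan lists at a median of 52.6. In sgP2 cells the P1 antibody gave a peak in both lists at 4 of these 5 genes, where 23.7% of all genes had one. Of the 4 carriers of vitamins, nucleosides and choline, 0 had a peak in both of these lists. SLC19A3, a thiamine carrier, was at 82.4 to 99.7 in the induced lists and at 13.0 to 61.1 in the AsPC1 pan lists, each within its own list. SLC23A1, a vitamin C carrier, had a median of 49.3 in 14 pan lists, and SLC44A4, a choline-like carrier, of 35.3 in 12.

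SLC28A2, a sodium-coupled carrier of purine nucleosides, was at 82.8 and 80.5 in Panc10.05 P1-α2, 58.7 and 68.4 in Panc10.05 P2-α8, 86.7 and 62.3 in BxPC3 P1-α2, and 46.5 in 1 BxPC3 P2-α8 list, and was absent from all AsPC1 lists. The organic cation carrier SLC22A3, the ergothioneine carrier SLC22A4 and the carnitine carrier SLC22A5 had peaks in all pan lists, with medians of 84.7, 72.4 and 85.9. SLC22A4 and SLC22A5 are neighbours on chromosome 5, and their windows share peaks.

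Of the 5 carriers of bile acids and organic anions, SLCO2B1, whose promoter is shown above, had the highest median percentile of all 45 members, while the hepatocyte carriers were found mostly in the induced lines. SLC10A1, the sodium-coupled bile acid importer of hepatocytes, was at 89.5 and 81.9 in Panc10.05 P1-α2, 93.5 and 96.7 in Panc10.05 P2-α8, 99.3 and 88.7 in BxPC3 P1-α2, and 73.0 and 76.2 in BxPC3 P2-α8. In AsPC1 it was at 80.5 and 9.8 with sgNC, had no peak with sgP1, and was at 26.8 and 23.0 with sgP2. SLCO1B1, an importer of bilirubin and drugs into hepatocytes, had values from 28.1 to 98.6 in 7 of 8 induced lists and none in AsPC1. SLCO1B3, its neighbour with a like role, had a peak in 4 induced lists at a median of 19.1, and SLCO4C1, an organic anion carrier of the kidney, in 2 pan lists, both Panc10.05 P2-α8 (44.7 and 51.5), and in 1 P1-antibody list with sgP2 (12.1).

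SLC27A2, which takes up and activates very long chain fatty acids, had no peak in Panc10.05 P1-α2, then 25.4 and 8.69 in Panc10.05 P2-α8, 63.9 and 77.9 in BxPC3 P1-α2, and 58.3 and 26.0 in BxPC3 P2-α8. SLC27A4, the intestinal member of the same family, was in all pan lists at a median of 79.6. Of the 3 carriers inside the cell, SLC35D1 had a median of 93.8, SLC37A4, the glucose-6-phosphate carrier of the endoplasmic reticulum, of 72.2, and SLC25A13 of 49.8 in 13 pan lists.

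The peaks near members merged into 425 regions, a median of 9 per member and between 1 and 20. Of these, 106 (24.9%) were found in 1 list, against 27.9% of 78729 regions genome-wide, and 21 (4.94%) in every pan list, against 2.95%. The 21 lay near 18 members, 7 of them inside the gene and 3 within 1 kb of a start. In sgP2 cells 16 of the 21 (76.2%) were also in both P1-antibody lists, against 63.2% of the regions in every pan list genome-wide. Examples with a high median besides the promoters were regions inside SLC15A1 (chr13:98746678-98747660, median 96.1), inside SLC2A9 (chr4:10006042-10007450, 93.2) and SLC9A3 (chr5:514061-515472, 91.9) and one before SLC2A1 (chr1:42979865-42981291, 91.3). The SLC15A1 region was not strong in every list, at 11.9 and 76.6 with sgP1. Counting each region once per member, 38.4% lay inside the member and 60.6% had it as the nearest gene. Exons and introns were not told apart, since only gene spans were used here.

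**Figure D3:**
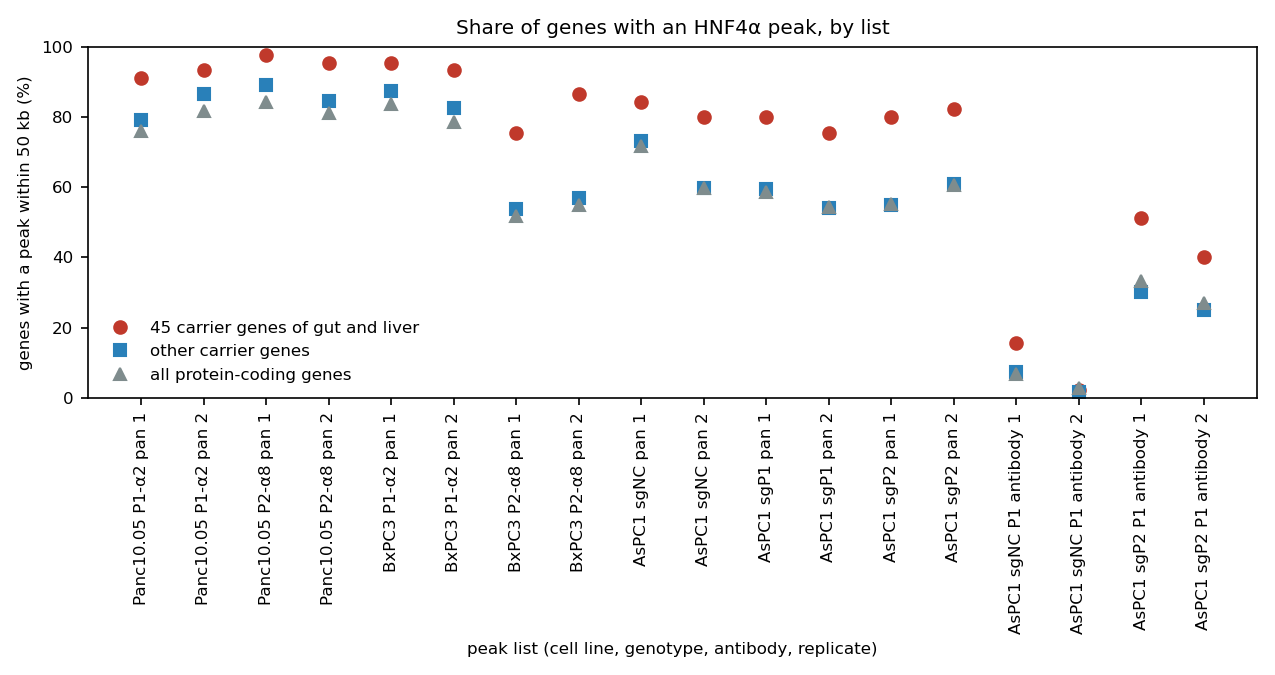
Percent of genes with a peak within 50 kb (vertical axis, 0 to 100) in each of the 18 lists (horizontal axis), for the 45 carriers of gut and liver, the other 353 carriers and all protein-coding genes. The 45 carriers, chosen with earlier results of these data known, lie above both other groups in every pan list.

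The isoforms were compared within each induced line. A gene was counted for 1 side when both of its libraries had a peak within 50 kb and neither library of the other side did. In Panc10.05, 2 of 45 members had a peak only with P2-α8, SLCO4C1 and SLC27A2, against 2.93% of all genes tested, and 0 only with P1-α2 (1.05%). In BxPC3, 3 of 43 had a peak only with P1-α2, SLC6A19, SLC6A20 and SLC44A4, against 19.2%, and 0 only with P2-α8 (0.0116%). With 2 libraries against 2 the exact permutation test cannot go below p = 0.333, so none of these calls has a test. The BxPC3 lists differed in length, with 41808 and 33737 peaks for P1-α2 and 12681 and 14666 for P2-α8. In lists shortened to equal length by fold enrichment none of the 3 BxPC3 calls was left, nor was any within 10 kb, and without replicate 2 of P2-α8 the 3 became 8. SLC27A2 lost its Panc10.05 call at equal length and at a −log10 q of at least 20, and without replicate 1 of P1-α2 the count of 0 became 1.

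At the level of regions, Panc10.05 had 44 of 278 regions near members only with P2-α8 (15.8% against 10.9% of all regions) and 4 only with P1-α2 (1.44% against 3.64%). The strongest P2-α8 regions were near SLC22A4, at chr5:132270843-132271584 (mean percentile 93.2, nearest gene PDLIM4) and inside the gene at chr5:132311521-132312298 (86.5). Another was just past SLC27A4 at chr9:128363302-128364006 (84.2). The 4 P1-α2 regions, at mean percentiles of 22.8 to 39.1, were near SLCO1B1, SLC7A7, SLC35D1 and SLC9A2. In equal lists of 24828 peaks the counts were 16 of 207 (7.73% against 8.15%) and 9 (4.35% against 7.17%).

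BxPC3 had 61 of 282 regions only with P1-α2 (21.6% against 28.2%) and 0 only with P2-α8 (0.129%). These 61 lay near 28 members, and 5 of them were inside SLC27A2, which had 10 and 11 peaks with P1-α2 and 2 and 3 with P2-α8. In lists of equal length SLC27A2 had 0 and 5 peaks with P1-α2 and 2 and 3 with P2-α8. At an equal 12681 peaks the counts were 5 of 143 for P1-α2 (3.50% against 6.83% of all regions) and 6 for P2-α8 (4.20% against 5.31%), so the excess on the P1-α2 side was not seen at equal list lengths. In the full lists 13 members had fewer peaks in both P1-α2 lists in Panc10.05 and more in BxPC3, as did 15.7% of all genes. At equal length no member did, against 1.04% of all genes. The region comparisons were added after the data were seen.

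In AsPC1, SLC10A1 was the 1 of 38 members with a peak only in sgNC against sgP1 (4.8% of all genes), and none had one only in sgP1 (0.227%). The SLC10A1 region, chr14:69766653-69767174, lies past the end of the gene nearest to SRSF5, at 80.5 and 9.8 with sgNC. Leaving out replicate 1 or replicate 2 of sgP1 raised the count to 2, and the SLC10A1 call was lost in equal lists and at a −log10 q of at least 20. Against sgP2, sgNC alone had SLC2A5, 1 of 38 (3.76%), from regions inside the gene at chr1:9080549-9081154 and chr1:9078996-9079648, and sgP2 alone had 0 (0.174%), or 1 without replicate 1 of sgNC. The SLC2A5 call was also lost in equal lists and at the stricter q. Between the guides, SLC10A1 had a peak in both sgP2 lists and neither sgP1 list, 1 of 38 (2.45%), and 0 members had the reverse (1.38%). That call was lost at a −log10 q of at least 20, and leaving out either sgP1 library raised the sgP2 count to 2 and, without replicate 2, the sgP1 count to 1.

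Regions near members were present in both sgNC lists and in neither sgP1 list in 27 of 183 cases (14.8% against 8.97% of all regions), and the reverse in 0 (0.409%). The 27 lay near 18 members and had a median percentile of 35.9 in the sgNC lists. The strongest was inside SLCO2B1, at chr11:75168324-75169375, 8998 bases past a start, at a mean of 82.4. Others were inside SLC15A1 (chr13:98738847-98739476, mean 41.2) and SLC2A5 (chr1:9080549-9081154, mean 51.2). Compared with sgP2, 20 of 188 were only in sgNC (10.6% against 7.2%) and 0 only in sgP2 (0.407%), with a median percentile of 24.5. At equal length the sgP1 comparison gave 12 of 129 only in sgNC (9.30% against 4.80%) and 1 only in sgP1 (0.775% against 3.53%), and the sgP2 comparison gave 3 of 131 only in sgNC (2.29% against 3.72%) and 2 only in sgP2 (1.53% against 3.10%).

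Set directly against each other, the guides left 11 of 158 regions only in sgP2 (6.96% against 4.32%) and 2 only in sgP1 (1.27% against 2.75%), and at an equal 11686 peaks 13 of 138 (9.42% against 4.00%) and 3 (2.17% against 3.72%). The sgP2 side held the same part of SLCO2B1 (chr11:75168600-75169004), the region inside SLC15A1 and one inside SLC9A2 (chr2:102698537-102699013, mean 54.6), and the sgP1 side held SLC5A1 (chr22:32052237-32052662) and SLC16A5 (chr17:75096097-75096353). The 3 guide comparisons share libraries, so they are not independent. Every one of them is 2 libraries against 2, with no p below 0.333 by exact permutation.

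With the P1 antibody, 11 of 23 members had a peak in both sgP2 lists and neither sgNC list, against 46.5% of all genes tested, and 0 the reverse (0%). They were SLC2A1, SLC2A2, SLC2A9, SLC7A5, SLC16A5, SLC11A2, SLC30A10, SLC22A3, SLC22A5, SLC35D1 and SLC37A4. The lists held 5200 and 3916 peaks with sgP2 and 697 and 260 with sgNC, and at an equal 260 peaks 1 member was left. Without replicate 1 of sgNC the 11 became 17. At the level of regions, 14 of 41 were only in sgP2 (34.1% against 36%) and 0 only in sgNC (0.0638%). Among the strongest were the SLC35D1 promoter (chr1:67053683-67054480, mean 83.7), a region inside SLC2A9 (chr4:10006310-10007246, 75.9) and a pair of regions inside SLC30A10 (74.6 and 74.0).

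Within sgP2 cells, 14 of 38 members had a peak in both pan lists and neither P1-antibody list (27.1% of all genes), and 0 the reverse (0.0307%), or 1 without replicate 2 of the P1 antibody. The 14 were SLC2A3, SLC6A20, SLC7A9, SLC26A3, SLC26A6, SLC17A4, SLC16A1, SLC39A5, SLC19A3, SLC23A1, SLC44A4, SLC22A4, SLC10A1 and SLC27A4. For regions the count was 44 of 135 (32.6% against 29.2%), with 0 the reverse (0.0562%). The SLC7A9 promoter was one of these, and the strongest was a region near SLC27A4 (chr9:128307182-128307884, mean 81.5). At an equal 3916 peaks there were 2 of 37 regions on each side (5.41%, against 3.99% of all regions for pan and 2.33% for the P1 antibody), and 1 member for pan and 2 for the P1 antibody.

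**Figure D4:**
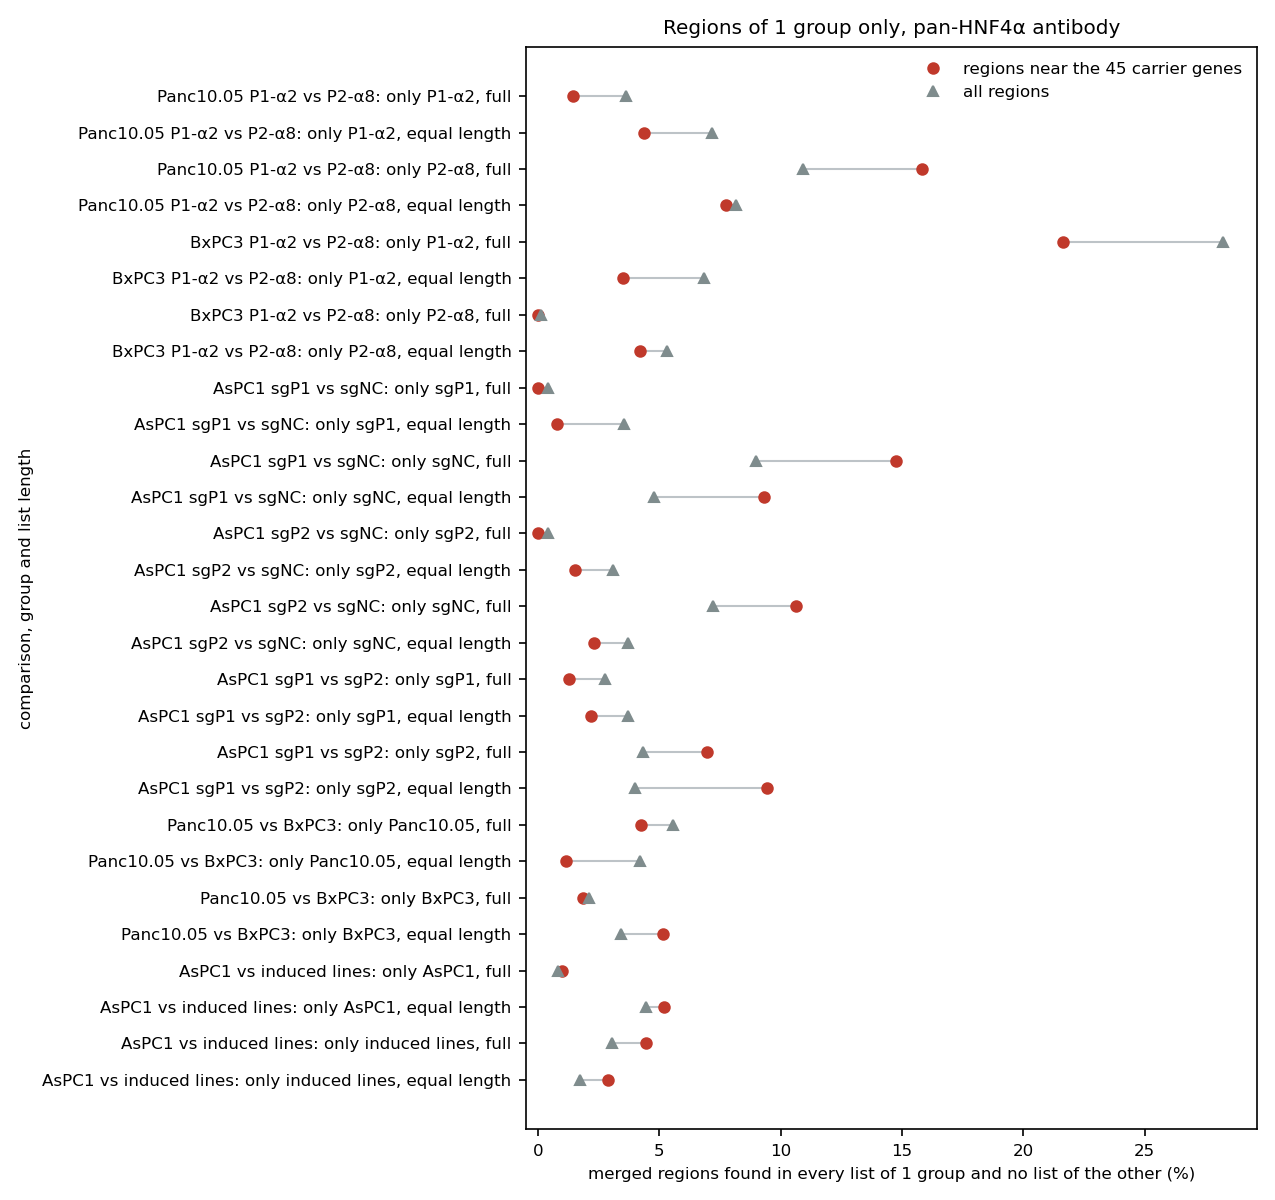
Percent of merged regions found in every list of 1 side and in no list of the other (horizontal axis), near the 45 carriers and over all regions. The vertical axis gives the comparisons made with the pan antibody only, in full lists and in lists of equal length. The comparisons that used the P1 antibody are not drawn. For BxPC3, 21.6% of regions near members are only with P1-α2 in full lists, and 5 of 143 at equal length.

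Panc10.05 and BxPC3 were compared over 4 lists each. No member had a peak in all 4 lists of 1 line and none of the other (2.68% of genes for Panc10.05, 0.657% for BxPC3), or 1 for Panc10.05 without replicate 1 of BxPC3 P1-α2. No gene passed an adjusted p of 0.05 in the exact permutation test (0%), the smallest adjusted p being 0.857, and of the 619 genes at an unadjusted p under 0.05, 0 were members. Of the regions near members, 16 of 376 were only in Panc10.05 (4.26% against 5.55%) and 7 only in BxPC3 (1.86% against 2.09%). Their adjusted p was 0.374 by exact permutation, so none passed. At an equal 12681 peaks the counts were 2 of 175 for Panc10.05 (1.14% against 4.21% of all regions) and 9 for BxPC3 (5.14% against 3.40%). The larger number near members thus turned to the BxPC3 side at equal length. Of the 7 BxPC3 regions in the full lists 4 lay inside a member, among them SLC15A1 (chr13:98731960-98732748, mean 79.2) and SLC26A3 (chr7:107779675-107780241, 62.0). The one with the highest mean was near SLC19A3, with SCYGR5 as the nearest gene (chr2:227653352-227653940, 79.4). The Panc10.05 regions included one 44855 bases before a start of SLC26A6 with NCKIPSD as the nearest gene (chr3:48680000-48680695, 81.0) and one near SLC17A4 (chr6:25746973-25747467, 63.7). Line, doxycycline dose and sequencing series cannot be told apart, since the doses differed and the library names put each line in a series of its own.

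AsPC1 was compared with the 8 induced lists at a −log10 q of at least 8 in every list, the level at which the induced lists end, because AsPC1 lists reach down to 2. Line, doxycycline induction and guide cannot be told apart in this comparison. SLC13A2 was the 1 of 45 members with a peak in every induced list and no AsPC1 list (5.92% of genes), and 0 had the reverse (0.102%). Without replicate 1 of the sgNC pan lists the count was 2, and without replicate 1 of BxPC3 P2-α8 it was 3. In the exact permutation test of presence, adjusted over 18670 genes, 4 of 45 members (8.89%) passed in favour of the induced lines, against 11.7% of all genes, and 0 in favour of AsPC1 (0.284%). At an unadjusted p under 0.05 there were 7 members (15.6%), all on the induced side, against 24.2% of all genes on either side. SLC13A2 was in 8 of 8 induced and 0 of 6 AsPC1 lists (exact permutation p = 0.000333, adjusted p = 0.00553). SLC43A1 was in 8 of 8 and 1 of 6 (adjusted exact permutation p = 0.0367), and SLC28A2 and SLCO1B1 in 7 of 8 and 0 of 6 (adjusted p = 0.0390 for each).

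SLC27A2, in 6 of 8 and 0 of 6 lists, missed the threshold (adjusted exact permutation p = 0.0551), as did SLC2A5 and SLC10A1, in 8 of 8 and 2 of 6 (adjusted p = 0.0771). The SLC43A1 call was lost when replicate 2 of sgNC or any sgP1 or sgP2 library was left out, with an adjusted p of at most 0.0576. In lists shortened to an equal 8164 peaks the adjusted exact permutation p was 0.130 for SLC13A2 and SLCO1B1 and 0.253 for SLC28A2. With the full lists it was 0.294 for SLC43A1 and 0.0594 for SLC28A2 and SLCO1B1. Over all alternatives it ran from 0.00386 to 0.130 for SLC13A2, 0.00386 to 0.294 for SLC43A1, 0.00724 to 0.253 for SLC28A2 and 0.00724 to 0.130 for SLCO1B1. In presence, 41 members did not pass, which does not show that they were alike, and with the full lists 33 of 45 had a peak in every induced list (41.6% of all genes) and 33 in every AsPC1 pan list (45.7% of all genes).

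Some regions separated the AsPC1 lists from the induced lists at the same threshold, again with line, induction and guide confounded. Of 403 regions near members, 18 were in all 8 induced lists and no AsPC1 list (4.47% against 3.03%) and 4 in all 6 AsPC1 lists and no induced list (0.993% against 0.826%), each with an adjusted p of 0.00863 by exact permutation. The induced regions included one near SLC7A5 (chr16:87789330-87790437, mean percentile 93.0), and others inside SLCO2B1 at chr11:75164216-75165334 (91.9), SLC19A3 at chr2:227706634-227707382 (90.7) and SLC43A1 at chr11:57501873-57503487 (82.0). SLC13A2 had its region inside the gene at chr17:28479632-28481258 (81.5), 6858 bases past the start, and SLC10A1 had one 12206 bases before its start at chr14:69809024-69809798 (86.5). The 4 AsPC1 regions were the SLC7A9 promoter (chr19:32869424-32870275, 67.1), one near SLC16A5 (chr17:75076902-75077683), one 2348 bases before a start of SLC7A7 (chr14:22821780-22823097) and one at SLC9A3 (chr5:522977-524758). SLC7A7 and SLCO2B1 thus had regions of 1 side beside promoters bound in all lines. At an equal 8164 peaks the counts were 5 of 174 for the induced lines (2.87% against 1.74% of all regions) and 9 for AsPC1 (5.17% against 4.44%), so the larger number turned to the AsPC1 side near members and over all regions.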

How the data were processed

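HNF4α ChIP-seq was analysed in 18 immunoprecipitated libraries of 3 human cell lines, and the 14 input libraries were not used here. The submitters' processing notes name Bowtie2 2.2.9 and MACS2 2.2.7 and the builds hg38 and mm10, with no role given. The deposited files are narrowPeak lists, 1 per library, so peaks were called per sample. In them the authors give for every peak a fold enrichment (a linear ratio), the −log10 of a p-value and of a q-value, and an integer score. These are the authors' own values, used to rank and filter within a list. Read depth is unknown, so no interval for reads can be given, and list length stands in its place (260 to 41808 peaks).

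Groups came from the labelled line, genotype and antibody. For BxPC3 P2-α8 the titles name α8 with P1, and the genotype label was used. A gene had a peak when a summit lay within 50 kb of its span in a RefSeq gene table of GRCh38.p14. Regions merged peaks that overlap by at least 1 bp. An exact permutation test (two-sided) compared presence, and p was adjusted by Benjamini-Hochberg over all genes, regions or promoter windows with a peak in at least 1 library compared. The carriers, their roles and the other gene lists were chosen with earlier results of these data known. Named first were members with a peak in every pan library or in both libraries of a P1-antibody group, those counted in a comparison, and the 3 with the highest median percentile; the others are given with their role. Single regions were picked after their values were seen. Alternatives were a window of 10 kb, a −log10 q of at least 20, lists of equal length by fold, leaving out each library, and the replicate number as a block. Replicate numbers were not taken as pairs, since deviations of same-numbered libraries correlated between -0.0782 and 0.0687. The calling of genes was checked on random presence values for 20033 genes, with 2 libraries against 2. There 200 of 200 seeded genes were recovered, which the definition of the call requires, so this checks the code only. Peak counts per gene, compared in a single deposited list, differed from bedtools 2.31.1 at 0 genes. Python 3.11.15, numpy 2.4.6, pandas 2.3.3, scipy 1.17.1 and matplotlib 3.10.9 were used.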

Additional observations from a re-analysis of the deposited data

Results flagged for a closer look

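At 13 members the number of peaks within 50 kb differed between the isoforms in opposite directions in the 2 induced lines, which is what drew attention to them. At SLC2A2, SLC2A3, SLC2A9, SLC5A1, SLC7A7, SLC16A1, SLC16A5, SLC11A2, SLC44A4, SLC22A4, SLC22A5, SLC27A2 and SLC27A4, both P1-α2 lists held fewer peaks than both P2-α8 lists in Panc10.05, and more in BxPC3. No member had the reverse, and neither did any gene (0%). The difference between the lines was not tested, and 3136 genes (15.7%) had the same pattern. The lists held 24828 and 34146 peaks for P1-α2 and 39111 and 33646 for P2-α8 in Panc10.05, and 41808 and 33737 against 12681 and 14666 in BxPC3. Both P1-α2 lists were longer in BxPC3, while in Panc10.05 the lengths overlapped. In lists of equal length 0 members and 208 genes (1.04%) had the flagged pattern, and 0 members and 132 genes (0.659%) had the reverse.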

How the results depend on the processing

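Read depth is unknown, list lengths ran from 260 to 41808, and no comparison of 2 libraries against 2 can reach a small p. Of 107 alternative values for counts over members, other than those leaving out a library, 73 stayed within 1.5 times the reported count and 34 moved. Each count is of 1 side, and the larger side turned in lists of equal length for the BxPC3 isoforms (from 3 P1-α2 and 0 P2-α8 to 0 and 1) and for the antibodies in sgP2 cells (from 14 pan and 0 P1 to 1 and 2). With the replicate number as a block, 16 of 16 counts were unchanged by construction, because the block asks for the same presence and absence as the main call. These 16 are among the 107 values and the 73 that stayed, and they show nothing about stability. The replicate numbers are not taken as pairs. The cause of each move was not tested, apart from what the shorter lists or narrower windows remove by construction.

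Within 10 kb, members with a peak in both libraries numbered 22 with sgP2 and 11 with sgP2 under the P1 antibody. Members on 1 side numbered 0 for BxPC3 P1-α2, 2 for sgNC against sgP1, 2 for sgNC against sgP2, 7 for sgP2 under the P1 antibody, 7 for pan against the P1 antibody, 1 for Panc10.05 against BxPC3, 1 for AsPC1 and 5 for the induced lines, and 1 member passed the adjusted test in favour of AsPC1. SLC28A2 gave no value there, nor did the SLC7A9 promoter window, which has no 50 kb margin. At a −log10 q of at least 20, members with a peak numbered 22 with sgNC, 15 with sgP1, 19 with sgP2 and 8 with sgP2 under the P1 antibody. Members on 1 side numbered 1 for Panc10.05 P2-α8, 4 for sgNC against sgP1, 2 for sgP2 against sgP1, 7 for sgP2 under the P1 antibody, 8 for pan against the P1 antibody and 5 for the induced lines, and 10 passed the adjusted test in favour of the induced lines. In lists of equal length, 2 members had a peak with sgP2 under the P1 antibody. Members on 1 side numbered 1 for Panc10.05 P2-α8, 0 for BxPC3 P1-α2, 1 for BxPC3 P2-α8, 0 for sgNC against sgP1, 0 for sgNC against sgP2, 1 for sgP2 under the P1 antibody, 2 for the P1 antibody and 1 for pan in sgP2 cells, and 2 for BxPC3 against Panc10.05, and 2 passed the adjusted test in favour of the induced lines. With the full lists 1 passed it. The share of all genes in each of these settings is not given, so the counts show only how the members' numbers moved. No excess or lack of members can be read from them.

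Leaving out each library in turn moved 14 of 146 counts. The ranges were 1 to 7 for members with a peak under the P1 antibody with sgNC, 0 to 1 for Panc10.05 P1-α2 alone, 3 to 8 for BxPC3 P1-α2 alone, 1 to 2 for sgNC against sgP1, 0 to 1 for sgP2 against sgNC, 0 to 1 for sgP1 against sgP2, 1 to 2 for sgP2 against sgP1, 11 to 17 for sgP2 under the P1 antibody, 0 to 1 for the P1 antibody against pan, 0 to 1 for Panc10.05 against BxPC3, and 1 to 3 for the induced lines alone. Of 249 values for single genes, 172 kept their call and 77 lost it.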

Other observations

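Some genes that work beside the carriers had a peak within 50 kb in every list and others in few. As for the carriers, such a peak is not assigned to the gene. SLC3A2, the heavy chain that SLC7A5 and SLC7A7 need to reach the membrane, had a peak in all 18 lists at a pan median percentile of 95.9. SLC3A1, the heavy chain of SLC7A9, had one in 8 lists at a median of 64.7, with 0 of 2 lists for sgNC and for sgP1. NHERF1, a scaffold of apical carriers, and ATP1B1, a subunit of the sodium pump, were in all 18 lists at medians of 99.7 and 96.6. Of 14 such partner genes, 6 had a peak in every pan list, where 29.6% of all protein-coding genes had one.

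Of 10 ABC transporters of gut and liver, 6 had a peak in every pan list, where 29.6% of all protein-coding genes had one. ABCG2, an apical exporter of urate and drugs, was in 17 lists at a median of 98.4, and ABCC3, a basolateral exporter of organic anions, in 16 at 94.9. The sterol exporters ABCG5 and ABCG8, which share a start region, were in 10 lists at a median of 40.7. These lists were chosen with earlier results known, and nothing was tested on them.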
